A study of Mus musculus with 26 samples.

Results

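The small leucine-rich proteoglycans were followed through 13 mouse cell lines by way of Dcn, Lum, Bgn, Fmod, Ogn, Prelp and Aspn. They were chosen by name, with earlier results of these data known. Every probe annotated to these 7 symbols in the deposited bead-array table was taken, which gave 11 of 25697 probes. Of these, 10 probes of 6 genes passed the filter on dim probes (detection p under 0.01 on at least 2 arrays), among 14517 probes that passed in all. Each line was hybridised on 2 arrays, 26 in all, which the labels call biological replicates without saying that they came from separate cultures. All lines carry the strain label OG2, a mouse with a green fluorescent protein reporter of the pluripotency gene Oct4.

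MEF are embryonic fibroblasts. GSC[neonatal] and GSC[adult] are cultured germline stem cells of the testis, labelled day 10 and day 40. From each of these 2 GSC lines came 2 clones of induced pluripotent stem cells (iPSC[GSCneonatal]#1 and #2, iPSC[GSCadult]#1 and #2). Each GSC line also gave 2 clones of gPSC, pluripotent cells that arise in germline stem cell culture without introduced factors (gPSC[GSCneonatal]#1 and #2, gPSC[GSCadult]#1 and #2). The remaining lines were ESC, embryonic stem cells, and iPSC[MEF], labelled Tet-4F and made from OG2 fibroblasts. MEF were set against the clone gPSC[GSCadult]#2, and both against the other 7 germline-derived clones. Each named clone, MEF included, is 1 line with 2 arrays, and the sources used here do not say on what substrate or feeder cells the lines were grown.

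Small leucine-rich proteoglycans are secreted proteins of the extracellular matrix, built from leucine-rich repeats that form a curved solenoid and bind collagen fibrils. Dcn (decorin), Bgn (biglycan) and Aspn (asporin) form class I, of which decorin and biglycan carry chondroitin or dermatan sulphate chains. Lum (lumican), Fmod (fibromodulin) and Prelp form class II, whose members bind collagen and, in part, carry keratan sulphate. Ogn (osteoglycin, also called mimecan) belongs to class III. Fibroblasts and other mesenchymal cells are their usual source, and decorin and biglycan also bind TGF-beta and cell-surface receptors.

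In the RefSeq gene table (GRCm38.p6), used for names and neighbours, Dcn and Lum lie next to each other on chromosome 10 with Kera and Epyc beyond Lum. Prelp and Fmod lie next to each other on chromosome 1 with Optc before them, Aspn, Omd and Ogn follow each other on chromosome 13, and Bgn lies on chromosome X. RefSeq promoter entries on build GRCm38.p6, from 250 bases before to 50 after the start, were matched for Bgn, Aspn, Fmod, Prelp and Ogn. Those of the 4 genes measured above background are shown because Prelp and Fmod are neighbours that differed in pattern, while Bgn and Ogn shared the pattern of Fmod. Capitals mark letters of the searched motifs.
Prelp, chr1:133921352-133921651 (minus strand): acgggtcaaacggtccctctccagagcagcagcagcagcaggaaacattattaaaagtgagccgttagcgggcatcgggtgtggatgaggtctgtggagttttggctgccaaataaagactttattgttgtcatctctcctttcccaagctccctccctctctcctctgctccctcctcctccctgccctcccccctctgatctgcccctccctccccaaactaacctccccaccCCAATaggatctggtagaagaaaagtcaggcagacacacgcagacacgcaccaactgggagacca
Fmod, chr1:134037004-134037303 (plus strand): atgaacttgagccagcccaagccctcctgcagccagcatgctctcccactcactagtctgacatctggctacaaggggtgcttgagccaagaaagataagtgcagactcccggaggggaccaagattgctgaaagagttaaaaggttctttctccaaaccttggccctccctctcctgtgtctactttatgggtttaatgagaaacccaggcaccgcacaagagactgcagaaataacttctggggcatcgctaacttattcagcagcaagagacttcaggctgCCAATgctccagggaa
Bgn, chrX:73483351-73483650 (plus strand): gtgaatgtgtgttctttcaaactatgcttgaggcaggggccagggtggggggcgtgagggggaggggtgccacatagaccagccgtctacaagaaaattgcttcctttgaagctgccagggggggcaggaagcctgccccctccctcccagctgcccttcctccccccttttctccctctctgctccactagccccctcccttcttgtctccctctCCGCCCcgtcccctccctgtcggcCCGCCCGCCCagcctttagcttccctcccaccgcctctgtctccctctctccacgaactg
Ogn, chr13:49607765-49608064 (plus strand): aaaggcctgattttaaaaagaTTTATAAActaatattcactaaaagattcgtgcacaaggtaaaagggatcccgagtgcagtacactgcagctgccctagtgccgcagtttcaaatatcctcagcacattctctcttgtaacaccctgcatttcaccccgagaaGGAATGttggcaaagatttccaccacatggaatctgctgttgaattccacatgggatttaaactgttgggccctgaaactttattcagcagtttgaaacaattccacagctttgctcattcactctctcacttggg
Motifs were searched on both strands. The TATA box, TATAAA, occurs in 13.6% of 32851 promoters of this length. The CCAAT box is in 37.4% and the GC box, written as GGGCGG, in 35.7% of them. The AP-1 site, as TGANTCA, is in 7.8%. The TEAD site, as GGAATG, is in 14.7%, and the core of the interferon-stimulated response element in 3.4%. Prelp held CCAAT at position -15 from the start and Fmod at 35. Bgn held the GC box on the reverse strand at -34, -10 and -6, the last pair overlapping, and neither TATAAA nor CCAAT. Ogn held TATAAA on both strands at -229 and -227, overlapping each other, and GGAATG at -86. CCAAT was the only one of the 6 motifs found in Prelp or Fmod. A match describes letters in this window and no binding site.

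Arrays detected between 9984 and 12081 probes, 38.9% to 47.0% of all. The median of the probes not detected, taken as background, was 82.3 to 93.8 intensity units outside MEF and 116.1 and 124.1 in MEF. The 95th percentile of intensity stood at 8.58 to 10.76 times background outside MEF and at 23.82 and 22.73 times in MEF. The MEF arrays thus had a higher background and a brighter upper range, and were brought to the common scale by quantile normalisation. They also detected the fewest probes, 9984 and 10130. Their lowest detected levels, 5.36 and 5.31 in log2, were the highest of all arrays. Arrays of a line correlated at 0.9934 to 0.9964 over probes. The line means of gPSC[GSCneonatal]#2 and iPSC[MEF] correlated at 0.9971, as high as arrays of the same line, and results that rest on gPSC[GSCneonatal]#2 are therefore also given without both. MEF had 11 of the 13 fibroblast markers on the array detected on both arrays and 1 of 13 pluripotent markers, while all 10 pluripotent lines had 13 of 13 pluripotent markers detected.

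The family fell into a pair of patterns that set MEF and gPSC[GSCadult]#2 apart from the rest in different ways. Dcn, Lum and Prelp were highest of all 13 lines in gPSC[GSCadult]#2, and by normalised level MEF, the fibroblasts, ranked 10 and 11 of 13 for the Dcn probes, 12 for Lum and 6 for Prelp. By raw intensity over background, on which the MEF arrays were not brought to the common scale, MEF ranked 8 and 7 for Dcn ILMN_2596346 and ILMN_2747959, 12 for Lum and 2 for Prelp, with gPSC[GSCadult]#2 at rank 1 for each. Bgn, Ogn and Fmod were highest in MEF, with gPSC[GSCadult]#2 next in the order, although Fmod ILMN_1230020 was not detected there. Fmod and 2 of the 3 Ogn probes passed the filter only through MEF and gPSC[GSCadult]#2, so counts below rest on the 6 probes detected in most lines (both of Dcn, Lum, Prelp, Bgn and Ogn ILMN_2859613). Of these 6, 4 were highest in gPSC[GSCadult]#2, against 4.54% of all tested probes, and 2 in MEF, against 23.3%. Of the 4, 2 measure the same gene, Dcn. The genes and the clone were chosen with earlier results of these data known. Shares set beside counts, here and below, are therefore descriptive and test nothing. Levels below are background-corrected, quantile-normalised log2 signals, and a difference is the first named line minus the second, in log2 units with its SE.

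**Figure D1:**
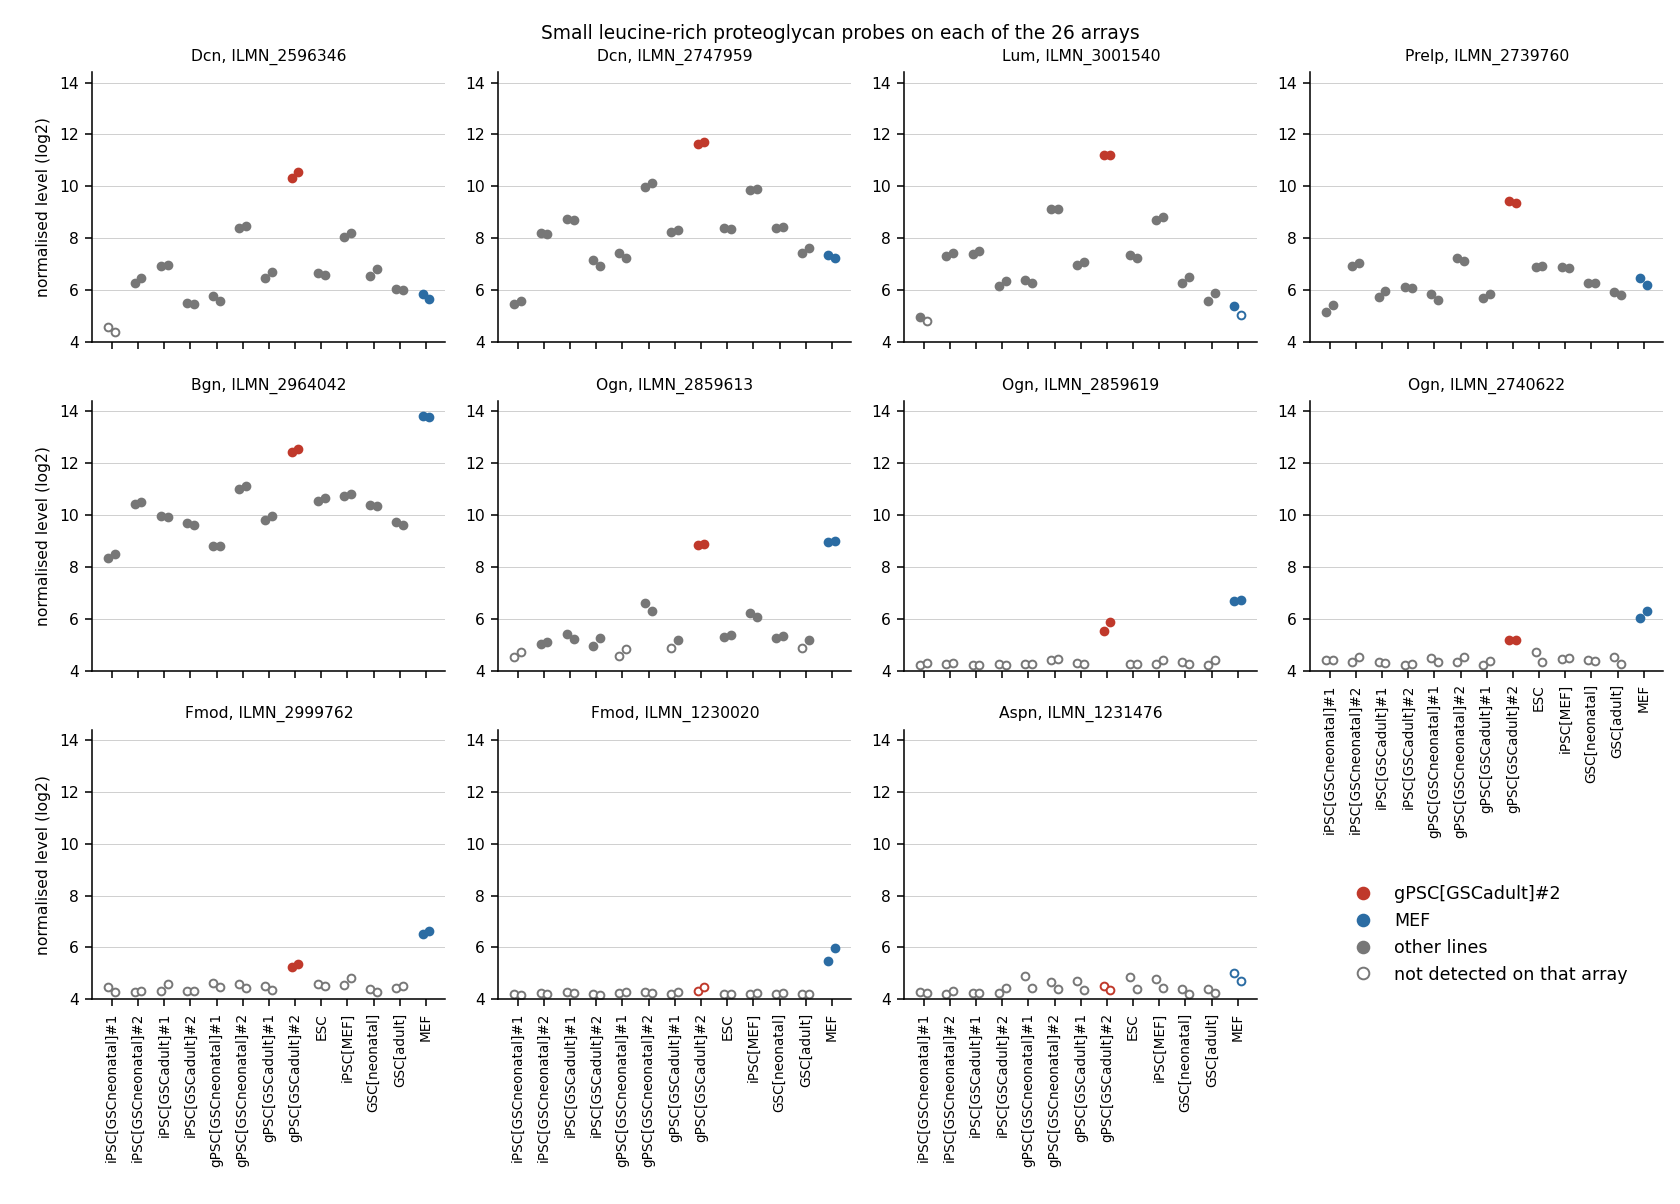
Normalised level (log2, vertical axis) of each of the 11 probes on each of the 26 arrays, with the 13 lines along the horizontal axis and 1 point per array; open points were not detected on that array. The points of gPSC[GSCadult]#2 are the highest for Dcn, Lum and Prelp, those of MEF for Bgn, Ogn and Fmod, and Aspn has open points only.

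Dcn encodes decorin, which binds collagen fibrils and limits their width. Its probe ILMN_2596346 stood at 10.33 and 10.53 in gPSC[GSCadult]#2 and at 5.86 and 5.67 in MEF. It stood at 6.65 and 6.58 in ESC, 8.05 and 8.20 in iPSC[MEF], 6.54 and 6.82 in GSC[neonatal] and 6.02 and 6.01 in GSC[adult]. Line means of the other 7 clones ran from 4.48 in iPSC[GSCneonatal]#1, where it was not detected, to 8.44 in gPSC[GSCneonatal]#2, with a median of 6.36. The clone gPSC[GSCadult]#2 thus lay above every other array, while MEF lay inside the range of the other clones. The probe was 4.67 ± 1.42 lower in MEF than in gPSC[GSCadult]#2, a difference of -4.67 (limma adjusted p = 0.0400). That call sits near the threshold, and over single lines left out its adjusted p ran from 0.00943 to 0.0580, and it missed the threshold without any of 5 other clones.

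The other Dcn probe, ILMN_2747959, was brighter and followed the same order, at 11.64 and 11.72 in gPSC[GSCadult]#2 and 7.35 and 7.24 in MEF. The other 7 clones ran from 5.50 to 10.06 by line means, with a median of 8.17. Both probes rose and fell together over the 13 lines, with Pearson r = 0.989. Its difference between MEF and gPSC[GSCadult]#2 was -4.38 ± 1.63 and did not pass (limma adjusted p = 0.0827). It passed without iPSC[GSCneonatal]#1 or without gPSC[GSCneonatal]#2 (limma adjusted p = 0.0260 and 0.0362), within a range from 0.0260 to 0.108 over single arrays and lines left out. On the linear scale above the offset, the MEF level taken as 100%, gPSC[GSCadult]#2 stood at 3567% by ILMN_2596346 and 2313% by ILMN_2747959. In the order of lines by ILMN_2747959, GSC[neonatal] did not differ from ESC beyond the spread of their arrays, nor did GSC[adult], gPSC[GSCneonatal]#1 and MEF from their neighbours among these.

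Lum encodes lumican, a keratan sulphate proteoglycan known best from the cornea, where it keeps collagen fibrils evenly spaced. Its probe ILMN_3001540 stood at 11.21 and 11.20 in gPSC[GSCadult]#2. In MEF it stood at 5.37 and 5.05 and was detected on 1 of 2 arrays. ESC had 7.36 and 7.25, iPSC[MEF] 8.69 and 8.81, GSC[neonatal] 6.25 and 6.49 and GSC[adult] 5.56 and 5.89. By line means the other 7 clones ran from 4.88 in iPSC[GSCneonatal]#1 to 9.13 in gPSC[GSCneonatal]#2, with a median of 7.02. MEF therefore ranked 12 of 13, and a fibroblast line had less Lum signal than ESC, GSC or 6 of the 7 other clones by line means. The difference between MEF and gPSC[GSCadult]#2 was -6.00 ± 1.48 (limma adjusted p = 0.0171), where the MEF level lies at the edge of detection.

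Prelp encodes a basic leucine-rich repeat protein that binds collagen and heparan sulphate and is thought to anchor basement membranes to connective tissue. Its probe ILMN_2739760 stood at 9.44 and 9.36 in gPSC[GSCadult]#2 and at 6.44 and 6.19 in MEF. ESC had 6.88 and 6.92, iPSC[MEF] 6.88 and 6.85, GSC[neonatal] 6.26 and 6.25 and GSC[adult] 5.90 and 5.81. The other 7 clones ran from 5.29 to 7.18 by line means, with a median of 5.85. The arrays of gPSC[GSCadult]#2 lay above those of all 12 other lines, and MEF did not differ from GSC[neonatal] beyond the spread of their arrays. The clone was higher than MEF, with a difference of -3.08 ± 0.80 for MEF minus the clone (limma adjusted p = 0.0210).

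Bgn encodes biglycan, the relative of decorin with a pair of glycosaminoglycan chains. Its probe ILMN_2964042 was bright in every line, at 13.83 and 13.79 in MEF and 12.43 and 12.56 in gPSC[GSCadult]#2. ESC had 10.54 and 10.65, iPSC[MEF] 10.73 and 10.83, GSC[neonatal] 10.39 and 10.34 and GSC[adult] 9.73 and 9.63. The other 7 clones ran from 8.42 to 11.06 by line means, with a median of 9.90. The arrays of MEF and of gPSC[GSCadult]#2 each lay above all arrays of the other 11 lines and did not overlap each other. The difference of 1.32 ± 1.05 between MEF and gPSC[GSCadult]#2 did not pass (limma adjusted p = 0.412), with a 95% interval from -1.03 to 3.66. On the normalised linear scale the clone held 40.1% of the MEF level. By raw intensity over background MEF stood at 335.04 and the clone at 58.40.

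Ogn encodes osteoglycin, a small class III member found in bone, vessel walls and other connective tissue. Its brightest probe, ILMN_2859613, stood at 8.96 and 9.01 in MEF and 8.83 and 8.89 in gPSC[GSCadult]#2. ESC had 5.29 and 5.39, iPSC[MEF] 6.21 and 6.06, GSC[neonatal] 5.26 and 5.35 and GSC[adult] 4.87 and 5.16. The other 7 clones ran from 4.61 to 6.45 by line means with a median of 5.06, and 9 of their 14 arrays detected it. By normalised level MEF and gPSC[GSCadult]#2 stood close together and far above the rest with this probe. Their difference of 0.12 ± 0.70 did not pass (limma adjusted p = 0.930). The 95% interval of that difference ran from -1.44 to 1.69. By raw intensity over background MEF stood at 12.26 and the clone at 5.35, so how close they stood depends on the normalisation.

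The other Ogn probes, ILMN_2740622 and ILMN_2859619, were dimmer and were detected in MEF and gPSC[GSCadult]#2 only, among the 13 lines. ILMN_2740622 stood at 6.04 and 6.30 in MEF and 5.18 and 5.19 in the clone, and ILMN_2859619 at 6.68 and 6.72 and at 5.51 and 5.86. By these probes MEF were higher, by 0.99 and 1.02. These differences are given with no test, since the fitted spread comes mostly from lines where neither probe was detected. The 3 probes of Ogn thus placed the clone at 91.5%, 36.2% and 40.6% of the normalised linear MEF level for ILMN_2859613, ILMN_2740622 and ILMN_2859619. They agreed on the order of these lines and not on the size of the gap.

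Fmod encodes fibromodulin, which binds collagen at the site shared with lumican and takes part in fibril assembly in tendon. It was the dimmest measured member, detected in 2 lines at most. ILMN_2999762 stood at 6.53 and 6.63 in MEF and 5.25 and 5.35 in gPSC[GSCadult]#2, and ILMN_1230020 at 5.48 and 5.97 in MEF. The latter was not detected in the clone (4.32 and 4.49), and neither probe was detected on any array of the other 11 lines. MEF were higher than the clone by 1.28 with ILMN_2999762. This is given with no test, since the fitted spread comes mostly from lines where that probe was not detected. ILMN_1230020 passed the filter through MEF alone and is given with no test. With it MEF were at least 1.68-fold higher, the bound taking the detection floor as the level of an undetected side, as do all bounds here. Fmod and its neighbour Prelp thus had their highest levels in different lines.

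Aspn, which encodes asporin and is known from cartilage and periodontal ligament, was detected on 0 of 26 arrays by its probe ILMN_1231476, with a lowest detection p of 0.0226. Of 10 further members of the wider family, 9 had probes on the array (Omd, Epyc, Kera, Optc, Nyx, Chad, Podn, Podnl1 and Ecm2), and all of these were detected on 0 of 26 arrays. Neither Kera and Epyc, which lie beyond Lum, nor Omd, which lies between Aspn and Ogn, nor Optc, which lies beside Prelp, therefore gave a signal with Dcn, Lum, Ogn or Prelp. An undetected probe bounds the level on this array and does not show that the gene is silent.

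The comparison of MEF with gPSC[GSCadult]#2 asked how the clone stands beside fibroblasts. Over all tested probes, limma called 23.0%, with 12.5% higher and 10.5% lower in MEF. In probes this was 1815 higher and 1521 lower, and the balance turned to 2751 and 3411 without quantile normalisation and to 1437 and 1676 with the authors' matrix. Of the 6 probes detected in most lines, 3 were lower in MEF (Dcn ILMN_2596346, Lum and Prelp) and 0 higher, while Dcn ILMN_2747959, Bgn and Ogn ILMN_2859613 were not called. Fmod ILMN_2999762 and the dimmer Ogn probes, detected in both lines, stood higher in MEF and are not counted as calls. Lum and Prelp of class II were thus lower in MEF, while Fmod of the same class stood higher by that probe. All MEF arrays lay below those of the clone for Dcn, Lum and Prelp, as for 42.2% of all probes, and above them for Bgn and Ogn ILMN_2859613, as for 40.1%. The median difference over all probes was -0.02. With a line as the unit, a group of 1 line is assumed to vary like the 7 clones. In RNA from whole cultures, fewer cells of a type and less RNA per cell cannot be told apart.

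**Figure D2:**
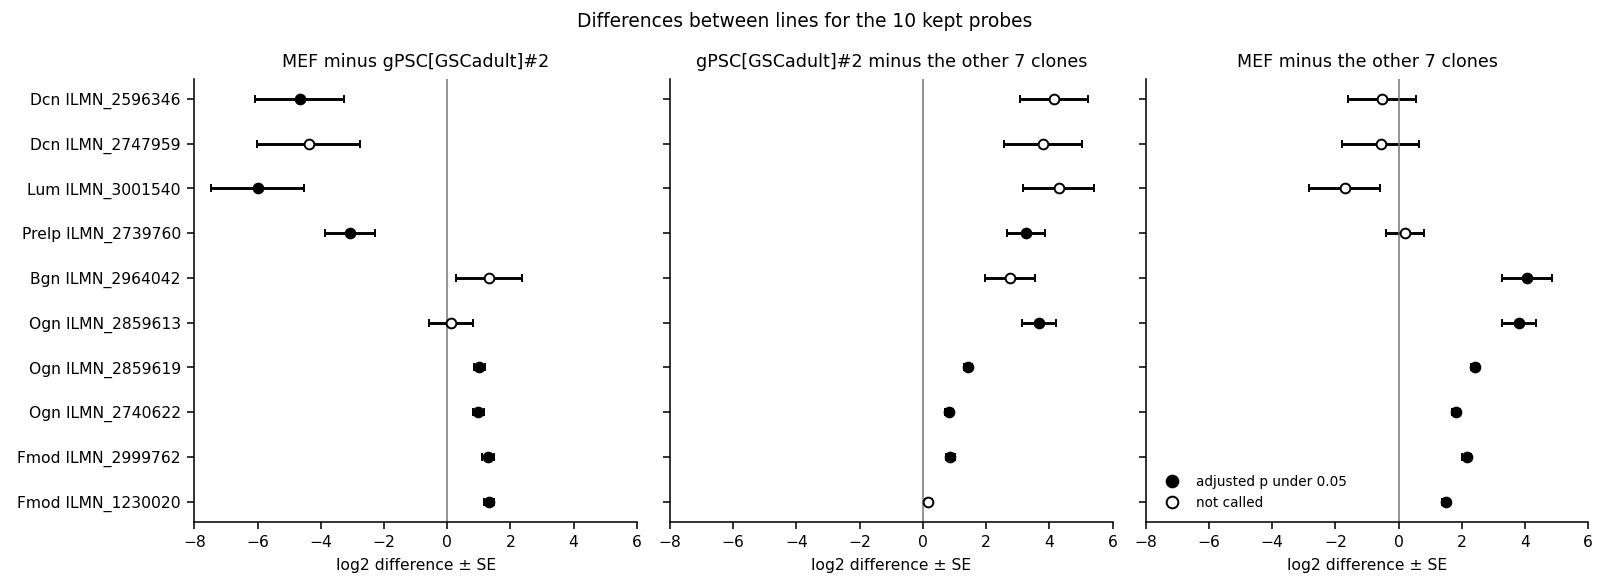
Log2 difference ± SE (horizontal axis) of the 10 kept probes in 3 comparisons over line means, MEF minus gPSC[GSCadult]#2, gPSC[GSCadult]#2 minus the other 7 clones, and MEF minus the other 7 clones; filled points passed an adjusted p of 0.05. Dcn, Lum and Prelp lie left of 0 in the first panel and right of 0 in the middle panel, and Bgn, Ogn and Fmod lie right of 0 in all panels. For Fmod and the dimmer Ogn probes, the SEs and filled points rest on lines without detection and are not read as calls.

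The clone gPSC[GSCadult]#2 stood above the other 7 germline-derived clones for Prelp and Ogn by the test, and its arrays lay above all 14 arrays of those clones for each of the 6 probes detected in most lines, where 10.9% of tested probes did so. By limma, 3.54% of probes were called higher in the clone and 0.420% lower, 3.96% in all, and 2 of these 6 were called, both higher. Prelp was higher by 3.27 ± 0.60 (limma adjusted p = 0.0170), and Ogn ILMN_2859613 by 3.68 ± 0.53 (limma adjusted p = 0.00666). The dimmer Ogn probes ILMN_2740622 and ILMN_2859619 were at least 1.17-fold and 1.66-fold higher and Fmod ILMN_2999762 at least 1.27-fold, given with no test, since these probes were detected in none of the 7 clones. Fmod ILMN_1230020 was not detected in any of the 8 clones.

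Dcn, Lum and Bgn did not pass in this comparison. Dcn differed by 4.16 ± 1.07 and 3.81 ± 1.23 for ILMN_2596346 and ILMN_2747959 (limma adjusted p = 0.0687 and 0.139), Lum by 4.29 ± 1.12 (limma adjusted p = 0.0723) and Bgn by 2.74 ± 0.79 (limma adjusted p = 0.101). Their spread among the other clones was wide, with SDs of 1.25 and 1.43 for Dcn, 1.31 for Lum and 0.91 for Bgn, and the highest of those clones was gPSC[GSCneonatal]#2 for all of them. Without that clone and iPSC[MEF], the line whose profile it shares, all 6 probes detected in most lines were called, against 6.76% of all probes. Leaving out both was chosen after seeing the data. It removes the highest of the 7 clones for each of these probes, which by itself widens the difference, so these calls are no independent support. Dcn then differed by 4.51 and 4.18 (limma adjusted p = 0.00756 and 0.0376), Lum by 4.66 (limma adjusted p = 0.00918) and Bgn by 2.96 (limma adjusted p = 0.0316). Leaving out gPSC[GSCneonatal]#2 alone gave the same values, because iPSC[MEF] is a group of 1 line and adds nothing to this comparison. Without iPSC[GSCneonatal]#1, the lowest clone, Dcn ILMN_2596346 and Lum passed as well (limma adjusted p = 0.0471 and 0.0410). Over the single arrays and lines left out, the adjusted p ran from 0.00756 to 0.112 and 0.0376 to 0.206 for the Dcn probes, 0.00918 to 0.121 for Lum and 0.0316 to 0.160 for Bgn.

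The sister clone gPSC[GSCadult]#1 and the parent line GSC[adult] give a closer setting, since both share the germline source of gPSC[GSCadult]#2. These tests rest on the spread between the 2 arrays of a line and compare those lines only, and limma called 47.1% of all probes against the sister (19.9% higher and 27.2% lower in the clone) and 70.8% against the parent (32.7% and 38.2%). Against gPSC[GSCadult]#1 the clone was higher by 3.86 ± 0.12 and 3.40 ± 0.10 for Dcn ILMN_2596346 and ILMN_2747959, 4.18 ± 0.13 for Lum, 3.64 ± 0.11 for Prelp, 2.59 ± 0.09 for Bgn and 3.83 ± 0.14 for Ogn ILMN_2859613 (limma adjusted p from 2.84e-16 to 7.49e-15). Against GSC[adult] the same probes were higher by 4.42 ± 0.12, 4.17 ± 0.10, 5.48 ± 0.13, 3.55 ± 0.11, 2.81 ± 0.09 and 3.85 ± 0.14. All 6 probes were called higher in both settings, and Lum had the largest gap of the 6 to both lines.

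Set against the other 7 clones, MEF were higher for Bgn and Ogn, while Dcn, Lum and Prelp were not called. limma called 44.4% of all probes here, 22.1% higher and 22.3% lower in MEF. Without quantile normalisation the calls were 3748 higher and 5442 lower, against 3205 and 3236. The MEF arrays lay above every array of the clones for 2 of the 6 probes (Bgn and Ogn ILMN_2859613), against 26.1% of all probes, and below them for 0, against 30.4%. Bgn was 4.06 ± 0.79 higher (limma adjusted p = 0.00244) and Ogn ILMN_2859613 3.80 ± 0.53 higher (limma adjusted p = 0.000323). The dimmer Ogn probes ILMN_2740622 and ILMN_2859619 were at least 2.32-fold and 3.36-fold higher, and Fmod at least 1.71-fold with ILMN_1230020 and 3.09-fold with ILMN_2999762, bounds with no test, since these probes were detected in none of the clones. Dcn differed by -0.52 ± 1.07 and -0.57 ± 1.23, Lum by -1.71 ± 1.12 and Prelp by 0.19 ± 0.60, none called (limma adjusted p from 0.244 to 0.816). For these 3 genes the MEF arrays lay within the range of the clones' arrays, and the 95% intervals, from -2.91 to 1.88 for Dcn ILMN_2596346 and from -4.21 to 0.80 for Lum, do not show that the levels were alike.

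MEF and iPSC[MEF] compare fibroblasts with a pluripotent line made from fibroblasts. limma called 30.2% of all probes, 15.9% higher and 14.3% lower in MEF, which is 2310 and 2071 probes, or 2843 and 4141 without quantile normalisation. Of the 6 probes detected in most lines 1 was called. Ogn ILMN_2859613 was 2.85 ± 0.70 higher in MEF (limma adjusted p = 0.0133), while the other Ogn probes and both Fmod probes were not detected in iPSC[MEF]. Bgn differed by 3.03 ± 1.05 and did not pass (limma adjusted p = 0.0535, and 0.0242 to 0.0736 over single arrays and lines left out, lowest without iPSC[GSCneonatal]#1). Lum, Dcn ILMN_2596346 and Prelp differed by -3.54 ± 1.48, -2.36 ± 1.42 and -0.55 ± 0.80 and were not called (limma adjusted p = 0.0996, 0.242 and 0.654). Lum passed without iPSC[GSCneonatal]#1 or gPSC[GSCneonatal]#2 (limma adjusted p = 0.0405 and 0.0317, within 0.0317 to 0.125). The arrays of iPSC[MEF] lay above those of MEF for each of these 3 genes. The comparisons share the MEF arrays or those of gPSC[GSCadult]#2, so their values for a gene are not independent.

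Among the other 7 clones the same clones marked the ends for all 6 probes detected in most lines. The clone iPSC[GSCneonatal]#1 had the lowest line mean and gPSC[GSCneonatal]#2 the highest for both Dcn probes, Lum, Bgn, Prelp and Ogn ILMN_2859613. From the lowest to the highest clone the fold was 23.6 for Dcn ILMN_2747959, 19.0 for Lum, detected on 1 of 2 arrays of the lowest clone, 6.25 for Bgn and 3.70 for Prelp. It was at least 11.8 for Dcn ILMN_2596346 and at least 2.98 for Ogn ILMN_2859613, which were not detected in the lowest clone. These are ranges over clones with no test. The order between the ends differed by gene, and iPSC[GSCadult]#1 ranked 4 of 13 lines for Dcn but 10 for Prelp. The Fmod probes and the dimmer Ogn probes were not detected in any of these clones. The arrays of the clones at both ends did not overlap for any of these probes. By Dcn ILMN_2747959, iPSC and gPSC clones, and clones of neonatal and of adult GSC, lay on both sides of the median, and both ends came from neonatal GSC.

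Across line means, Dcn and Lum varied together with and without MEF, with Pearson r = 0.964 over 13 lines and 0.973 over the 12 lines without MEF (ILMN_2596346). Dcn and Bgn, by contrast, gave 0.520 over 13 lines and 0.938 without MEF, and Dcn and Fmod ILMN_1230020 -0.09 and 0.807. That Fmod probe was detected in none of the 12 lines without MEF, so its values carry no reading here. Bgn and Ogn ILMN_2859613 gave 0.936 and 0.887. MEF was thus the line that separated Dcn and Lum from Bgn and Ogn ILMN_2859613. Among the other 12 lines, each of the 6 probes detected in most lines had its highest line mean in gPSC[GSCadult]#2. The share of all probes that do so among these 12 lines was not counted. These values describe lines that share arrays, normalisation and in part their parent line.

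**Figure D3:**
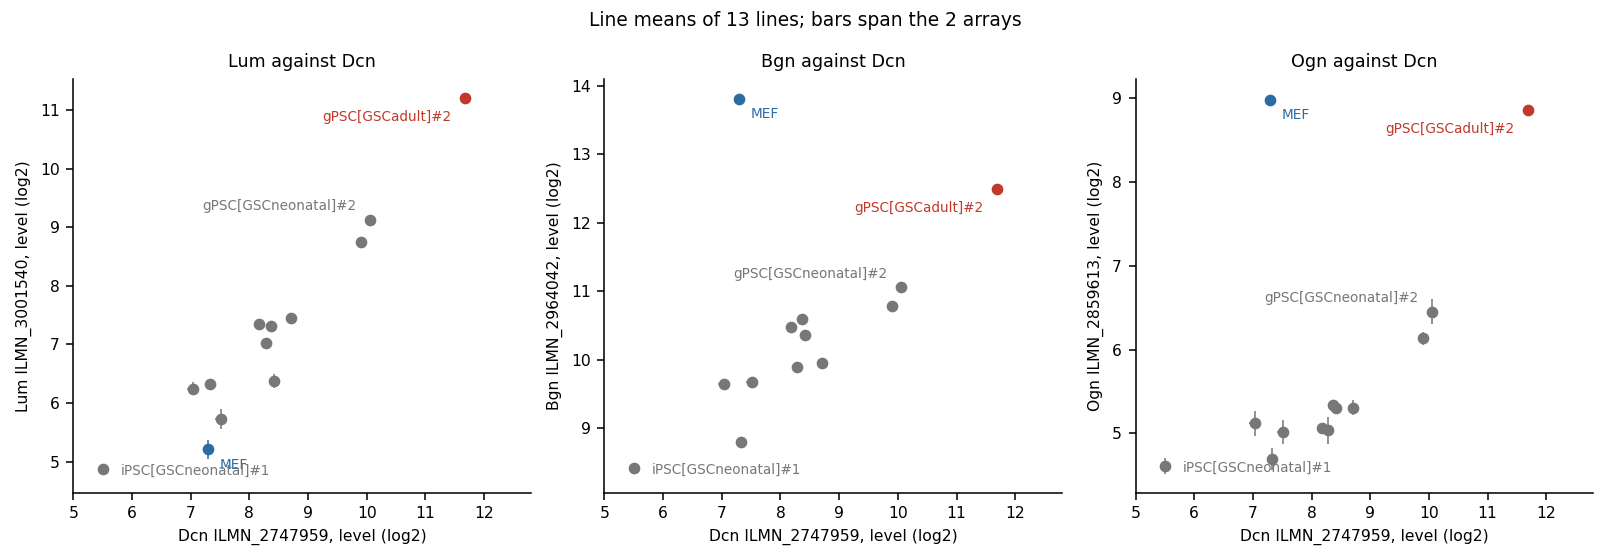
Line means (log2) of Lum ILMN_3001540, Bgn ILMN_2964042 and Ogn ILMN_2859613 on the vertical axes against Dcn ILMN_2747959 on the horizontal axis, 1 point per line for 13 lines, with bars spanning the 2 arrays. MEF lies near the low end for Dcn and Lum and at the top for Bgn and Ogn, while gPSC[GSCadult]#2 lies at the upper right of every panel.

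The genes with profiles most like each member over 13 line means were named by a fixed rule. For Dcn ILMN_2596346 they were the collagenase gene Mmp13 (r = 0.980, and 0.984 without MEF), the chemokine gene Cxcl1 (0.966 and 0.965) and the ceruloplasmin gene Cp (0.964 and 0.976), and for ILMN_2747959 Mmp13, Mmp3 and Cxcl1. For Lum they were the haptoglobin gene Hp (0.965 and 0.963), the lipocalin gene Lcn2 (0.956 and 0.954) and the interferon-inducible gene Ifit3 (0.939 and 0.948). For Prelp they were Gzme, Casp4 and Itm2a (0.973, 0.960 and 0.959). Bgn was most like the collagen VI genes Col6a1 (0.989 and 0.988) and Col6a2 (0.988 and 0.977) and Rnase4 (0.985 and 0.973). Ogn ILMN_2859613 was most like Sqor, Ch25h and Slco3a1 (0.993, 0.992 and 0.992), ILMN_2740622 like Cd44, Ddr2 and Lsp1, and ILMN_2859619 like Tm4sf1, Pparg and Ddr2. For Fmod the nearest were Sprr2k, Col5a2 and Serpinb2 with ILMN_1230020 and Sema3a, Sema3c and Nr2f2 with ILMN_2999762. The nearest genes of Fmod ILMN_1230020 fell from 0.997, 0.997 and 0.995 to 0.857, 0.871 and 0.845 without MEF.

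The matrix around these proteoglycans was read from lists of related genes, in the comparison of gPSC[GSCadult]#2 with the other 7 clones, where the median difference over all probes was -0.06 and 3.54% of all probes were called higher and 0.420% lower. Of 10 measured genes for collagens and fibril-bound matrix, 5 were higher and 0 lower in the clone (median 2.10). Dermatopontin, Dpt, a decorin-binding matrix protein, stood at 7.18 in the clone against 4.45 ± 0.35 (SD, n = 7) in the other clones and was not detected in MEF (2.72 ± 0.31, limma adjusted p = 0.00320). Col6a2 stood at 7.81 against 5.17 ± 0.65 and Col1a2, a chain of type I collagen, at 6.27 against 4.58 ± 0.22 (limma adjusted p = 0.0332 and 0.00456), both below MEF at 8.77 and 9.60. Dpt was detected on 2 and Col1a2 on 1 of 14 arrays of the other clones. Their spread and adjusted p thus rest on levels near the detection floor. By level alone Dpt, as Dcn and Lum, stood higher in the clone than in MEF, and Col6a2 and Col1a2, as Bgn, stood lower. The differences of Bgn and of Dcn ILMN_2747959 between these lines did not pass.

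Of 17 measured collagen-processing genes 4 were higher and 0 lower, and 13 were not called. They included the cross-linking enzyme gene Loxl1 (10.19 against 7.61 ± 0.59), the procollagen C-proteinase Bmp1 (8.70 against 6.95 ± 0.44) and its enhancer Pcolce (9.41 against 7.54 ± 0.43), with MEF at 12.44, 10.07 and 10.22. Of 19 genes that build glycosaminoglycan chains, the side chains of these proteoglycans, 2 were higher, 0 lower and 17 not called. These were Csgalnact1, which starts chondroitin sulphate polymers (2.20 ± 0.37, limma adjusted p = 0.0114), and the sulphotransferase gene Chst2 (1.29 ± 0.25, limma adjusted p = 0.0229). They were detected on 2 and 3 of 14 arrays of the other clones, so these values rest on levels near the detection floor. Of 18 other proteoglycans 3 were higher and 0 lower, namely Esm1 (endocan), Sdc3 and Sdc1 (syndecans), by 3.42 ± 0.67, 1.69 ± 0.35 and 1.16 ± 0.18. Esm1 stood at 8.42 in the clone and 5.81 in MEF and was detected on 5 of 14 arrays of the other clones.

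Of 22 measured TGF-beta and BMP pathway genes, 8 were higher, 0 lower and 14 not called (median 0.82). Tgfbr2, the type II receptor, stood at 9.85 in both the clone and MEF against 6.42 ± 0.96 (3.44 ± 0.82, limma adjusted p = 0.0495). The TGF-beta-induced matrix gene Tgfbi stood at 10.59 in the clone and 10.05 in MEF against 7.44 ± 0.84, and betaglycan, Tgfbr3, at 8.92 and 7.33 against 6.32 ± 0.52. Of 7 genes for receptors named for decorin, biglycan or lumican, 3 were higher and 0 lower. Egfr, which decorin binds, stood at 7.47 against 5.63 ± 0.38, Cd14, through which lumican and biglycan signal, at 6.26 against 4.54 ± 0.23, and Tlr4, a receptor for biglycan, at 5.50 against 4.33 ± 0.11. Tlr4 was not detected in the other clones and Cd14 was detected on 1 of their 14 arrays, so their levels there lie near the detection floor.

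In MEF, collagen and collagen-processing genes were called higher against the other clones while Dcn, Lum and Prelp were not called. Against the other 7 clones MEF were higher for 9 and lower for 0 of the 10 collagen and fibril-bound genes, where Bgn and Ogn were higher too, for 13 and 0 of the 17 processing genes and for 16 and 1 of the 22 TGF-beta and BMP genes. Over all probes the shares there were 22.1% higher and 22.3% lower. Against gPSC[GSCadult]#2 they were higher for 4 and lower for 1, 9 and 0, and 10 and 1 of these genes, with 12.5% higher and 10.5% lower over all probes. The lists include genes detected on few arrays of the other clones, such as Col1a2 on 1. The spread of such genes rests on levels near the detection floor, so these counts are descriptive.

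**Figure D4:**
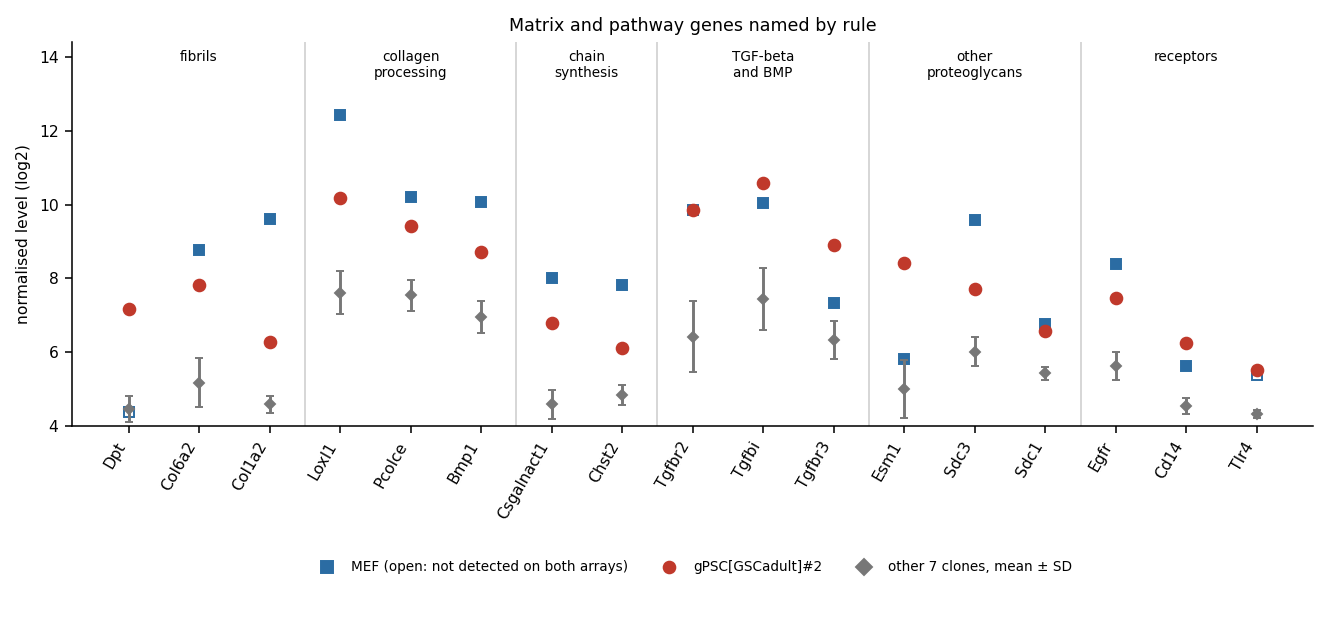
Normalised level (log2, vertical axis) of the genes named from 6 lists in MEF (squares), gPSC[GSCadult]#2 (circles) and the other 7 clones (diamonds, mean ± SD over clone means). The genes were chosen for the largest called differences between this clone and the other clones, so every circle lies above the other clones' mean by that choice. Genes of the lists that were not called are not shown. Among the genes that stand higher in gPSC[GSCadult]#2 than in MEF are Dpt, Tgfbi, Tgfbr3, Esm1 and Cd14.

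Markers of fibroblasts moved with the family in this clone. Of 11 measured fibroblast markers 9 were higher and 0 lower in gPSC[GSCadult]#2 than in the other clones (median 1.93), where 3.54% of all probes were called higher. Among them were S100a4 (3.30 ± 0.61), detected on 4 of 14 arrays of the other clones, Pdgfra (2.91 ± 0.66) and Mmp2 (2.61 ± 0.47). Of the 11 markers, Ddr2 and Fap were not detected in the other clones, and Pdgfrb and Twist2 were not detected in part of them. Tests of such markers rest on the detection floor, so the count of 9 is descriptive. The summed linear level of the 11 markers was 4250 in the clone, 14105 in MEF and 355 to 1399 in all other lines. Among these it was lowest in iPSC[GSCneonatal]#1 and highest in gPSC[GSCneonatal]#2, the clones at the ends of the range for Dcn and Lum. Fbln5 and Tcf21 were not detected in MEF or the clone. Pdgfra and Mmp2 stood at 8.76 and 10.91 in the clone and 7.98 and 9.98 in MEF. The part of these markers in the levels of the proteoglycans was not tested. The clone thus lay below MEF in the summed markers and above MEF in Dcn, Lum and Prelp.

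In the same comparison limma called 0 of 13 measured pluripotent markers in either direction (1 at an unadjusted p under 0.05), and their summed level was 35023 in the clone against 33170 to 49442 in the other pluripotent lines and 474 in MEF, with Dppa5a at 13.73 against 13.98 ± 0.22 and Sall4 at 11.69 against 11.87 ± 0.32. Against the sister clone gPSC[GSCadult]#1, tested on the spread between arrays, 1 of these 13 markers was called higher and 5 lower in the clone. Over all probes 19.9% were called higher and 27.2% lower there. Against the other 7 clones, markers of other cell types were mostly not called. In the muscle (7 genes measured), testis somatic (5), spermatogonial (13) and endothelial (4) lists limma called 0 genes, and 1 in each at an unadjusted p under 0.05, with Acta2 at 9.05 in the clone and 13.98 in MEF, Smtn differing from the other clones by -0.65 ± 0.30. For the other lists the clone had Clu at 8.71 against 7.48 ± 0.63, Wt1 at 6.17 against 5.09 ± 0.56, Tex14 at 6.71 against 7.90 ± 0.39, Dazl at 6.11 against 7.66 ± 1.94, Pecam1 at 6.19 against 7.10 ± 0.75 and Tek at 6.56 against 5.94 ± 0.60. Of 7 cartilage, bone and tendon markers Sox5 was higher (2.04 ± 0.24, limma adjusted p = 0.00320), though detected on only 3 of 14 arrays of the other clones. Of the tendon markers Scx and Tnmd were not detected in the clone while Mkx was, at 5.38 against 5.07 ± 0.24 and not called. Of the 12 on the array, 3 were detected on both arrays of the clone. Of 2 macrophage markers measured Cd14 was higher, from levels near the detection floor in the other clones, while Ptprc and Adgre1 were not detected.

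**Figure D5:**
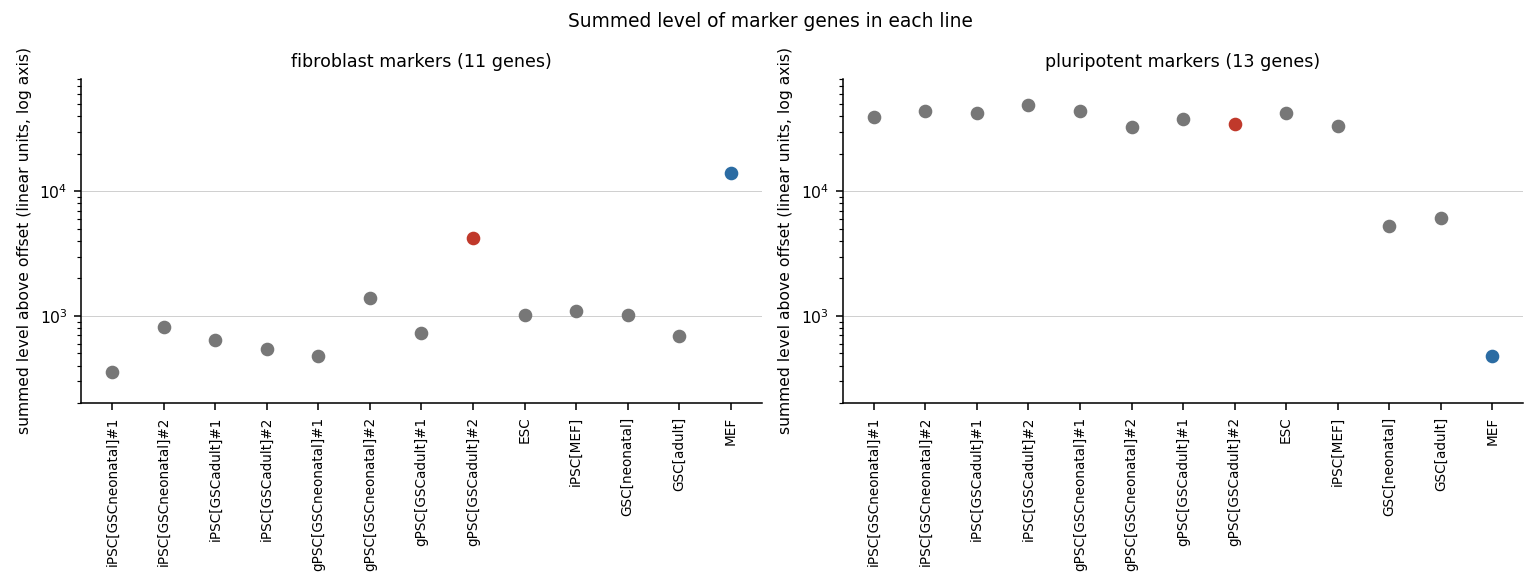
Summed linear level above the offset (log axis) of 11 fibroblast markers and 13 pluripotent markers in each of the 13 lines, 1 point per line. For fibroblast markers gPSC[GSCadult]#2 at 4250 lies between MEF at 14105 and the other lines at 355 to 1399, and for pluripotent markers it lies among the other pluripotent lines.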

How the data were processed

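Signal intensity and a detection p-value for each probe and array were deposited by the authors in a table of 25697 probes, and per the submitters' processing notes BeadStudio 3.2, RMA and lumi were used, in roles not given there. The authors also deposited a matrix of log2 values, whose steps are not given in the sources used here, and it served as an alternative. For this report neqc in limma 3.58.1 (offset 16, statmod 1.5.0, R 4.3.3) estimated background from the detection p-values, removed it, equalised the quantiles of all arrays and took log2, which compresses differences near background.

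Symbols came from Entrez identifiers and a RefSeq table (23978 probes had 1 symbol). limma was fitted to 13 line means in 6 groups, or to 26 arrays in 13 lines for gPSC[GSCadult]#2 against gPSC[GSCadult]#1 or GSC[adult], with Benjamini-Hochberg adjustment over 14517 probes and calls under 0.05. The scripts were tested on simulated data. The members, the clone and all lists were chosen with earlier results of these data known. Named genes were up to 3 per list with the largest called difference between gPSC[GSCadult]#2 and the other 7 clones, otherwise the 2 with the highest level, plus the 3 most similar genes per member probe. Other genes named from lists or neighbourhoods were chosen after their values were seen. For a bound, the undetected side was set, array by array, to the lowest detected signal or to the probe's value where that was higher. 1 description of a GSC[adult] array repeats the other's number, and its title was used. Numbers of arrays do not pair lines: over 78 pairs of lines the correlations of deviations ran from -0.169 to 0.412, with 28 over 0.1. The number of lines limits the precision. Alternatives changed background correction, normalisation, filter, unit, block and each array or line.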

Additional observations from a re-analysis of the deposited data

Results flagged for a closer look

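Among the other 7 germline-derived clones, gPSC[GSCneonatal]#2 stood apart from the rest for 2 probes of Ogn. For ILMN_2859613 its line mean was 6.45, and its gap to the next clone was 0.623 of the whole range, above the critical value of 0.568 for 7 values. For ILMN_2859619 it was 4.42, with a gap of 0.683 of the range, but this probe was not detected there. Chance marks about 1 in 20 groups in this way, and both probes measure the same gene. For ILMN_2859613 the same line pair led as for Dcn and Lum, with iPSC[MEF] at 6.14.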

How the results depend on the processing

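Of 2362 recomputed values of member probes, 2292 kept their direction and side of the threshold, 10 were no longer called, 60 became called and 0 changed direction. Calls lost were Dcn ILMN_2596346 in MEF against gPSC[GSCadult]#2 with the authors' matrix, without the filter or without any of 5 single clones (limma adjusted p 0.0505 to 0.0951). With the authors' matrix, Ogn ILMN_2859613 in MEF against iPSC[MEF] was lost too. So were the 2 dimmer Ogn probes in MEF against gPSC[GSCadult]#2, which are not counted as calls above. Counts of called probes moved by over 1.5 times as follows. With arrays in place of line means, limma called 9877 for MEF against gPSC[GSCadult]#2, 8027 for the clone against the other 7, 11496 for MEF against those and 10394 for MEF against iPSC[MEF], since the spread is then that between arrays. With the replicate number as a block, the counts were 9960, 8155, 11584 and 10480, and 6910 and 10376 against gPSC[GSCadult]#1 and GSC[adult]. Without quantile normalisation they were 6162 for MEF against the clone and 6984 against iPSC[MEF]. For the clone against the other 7, limma called 345 with the authors' matrix, 380 with detection required on 6 arrays and 982 without gPSC[GSCneonatal]#2 and iPSC[MEF], the last chosen after seeing the data, as was the use of arrays with a background under 90 (and MEF), which moved no count by over 1.5 times. Leaving out single arrays or lines gave 3040 to 3767, 380 to 982, 6061 to 6832, 4060 to 4920, 5686 to 6956 and 9500 to 10324 in the 6 comparisons, in the order MEF against the clone, the clone against the other 7, MEF against those, MEF against iPSC[MEF], the clone against gPSC[GSCadult]#1 and against GSC[adult]. The lowest and highest of the second range came without gPSC[GSCadult]#1 and gPSC[GSCneonatal]#2. Other scalings moved the median of all probes to between -0.25 and -0.10 where they moved it past 0.1. A slide block was not run, because the headers used here name no slide. The replicate block, for numbers that do not pair the lines, moved neither count of the single-line comparisons by over 1.5 times. Dim probes (Fmod, Ogn ILMN_2740622 and ILMN_2859619) are limited by signal over background.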
